A study of Danio rerio and Garra andruzzii with 24 samples.

Results

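The comparison described here set the response of zebrafish cells to 6 h of blue light (BL) against the response of blind cavefish cells to the same exposure, name by name. PAC-2 is a cell line from embryos of the zebrafish *D. rerio*, and EPA is a cell line from embryos of the Somalian cavefish *P. andruzzii* (labelled *Garra andruzzii*). Both were kept in darkness for 2 days and then lit at 468 nm. Members are the 12 libraries, of 24 in the series, taken before the light (0 h, DD control) and after 6 h, with 3 per line and time. No genetic change, drug or other agent was used, and the medium differed between the lines in its serum content. Each line is 1 cell line per species, so species and line cannot be told apart. Every dark library was taken at 0 h, and what light did and what the passing hours did cannot be told apart. Whether the 3 libraries of each group are separate cultures is not stated, so p-values reflect only how far these libraries spread.

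Genes were matched between the species by the UniProt entry name of their best protein match, without its species suffix (HEBP2 for HEBP2_HUMAN), and expected counts of all Trinity genes (assembled genes) with the same name were added up. Of 10188 names in either table, 6238 stood in both and 6235 passed the filter on low counts. A name is therefore a protein match and not a proven ortholog, and 4457 of the shared names were carried by 1 Trinity gene in each table. Library totals were 25642129 to 37696242 counts in PAC-2 and 28222136 to 37518035 in EPA. Levels are given in CPM, counts per 1000000 of the library after trimmed-mean (TMM) scaling, and are not corrected for length, so that they are compared between times and not between names or lines. Among the markers fixed for fibroblasts, 9 of 14 were in the PAC-2 table and 11 of 14 in the EPA table, with summed levels of 1252 to 1343 CPM and 3099 to 3332 CPM at 0 h. CO1A2, VIME, PGS2, PGFRB and TWST1 were missing from the PAC-2 table, and LUM, PGFRB and TWST1 from the EPA table. Markers of simple epithelium (K2C8 and K1C18, keratins) were also high in both lines, at 5533 to 5883 CPM and 7693 to 7882 CPM for the epidermis list at 0 h, and stood lower at 6 h, at 4769 to 4899 CPM and 7088 to 7234 CPM. These epidermis sums also include CADH1 in PAC-2 and CLD1 in EPA, each at 10 CPM or more. In PAC-2 alone, KCRM (muscle creatine kinase) stood at 649.6 to 689.8 CPM and then 707 to 725.5 CPM, TYRP2 (a pigment cell enzyme) at 92.9 to 102 CPM and then 107 to 108.5 CPM, and VGFR2 (an endothelial receptor) at 9.85 to 13.8 CPM and then, higher in every library, 18.7 to 21.4 CPM, each the only marker of its list in the table. PAC-2 alone also held APOA1 of the liver and yolk list, at 26.05 to 28.23 CPM and then 27.6 to 27.95 CPM. PLSL of the blood list stood at 0 to 5.03 CPM in PAC-2 and then at 0 CPM. In EPA alone, MYF5 and DESM of the muscle list summed to 25.25 to 27.18 CPM and then, lower in every library, to 18.52 to 21.21 CPM. No neural marker was in either table. The part of these markers in the results was not tested. In bulk RNA, fewer cells of a type and less RNA per cell cannot be told apart.

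As background, light reaches clock and repair genes of fish cells directly, without the eye. Much of this induction runs through the D-box, a short promoter element bound by the PAR-bZip activators (Tef, Hlf, Dbp) and by Nfil3. Blue light also raises reactive oxygen species in cultured cells, and heme, an iron-bearing porphyrin, is both a cofactor of respiratory and oxygen-handling enzymes and a source of oxidative damage when free. *P. andruzzii* has evolved in constant darkness, and its light-sensing opsins and the clock gene *per2* carry inactivating mutations. The comparison asks which parts of the zebrafish response are present, smaller or absent in the cavefish line, and whether anything moves in the cavefish line alone.

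D-box letters of 8 zebrafish genes are shown here because the names that hold these genes, with Trinity genes summed, rose in PAC-2 only in the comparison below. They are stretches that the study's motif search matched to D-box matrices in promoters of light-induced zebrafish genes. For each gene the stretch closest to the canonical forms TTACGTAA, TTATGTAA or, read on the other strand, TTACATAA was taken. The capitals mark the 8 bases closest to one of these forms, with letters in the order of the study's sheet, whose strand was not resolved.
soul5: atcTTACACAAcac
hebp2: gagTGATGTAAcat
abcb6a: ttaTTGTATAAgtc
blvra: acgTTGCGTAAgaa
sdha: gcgTTACATCAcaa
porb: catTTACATAAtaa
dhrs12: aaaTTATGTAAatc
cbr1: aaaTTACATAAta
The capitals of porb, dhrs12 and cbr1 have 0 mismatches to a canonical form, those of soul5, hebp2, blvra and sdha have 1, and those of abcb6a have 2. In GRCz11, soul5 lies on chromosome 3 (53476155 to 53486169, minus strand), hebp2 on chromosome 20 (30894093 to 30901034, minus strand) and abcb6a on chromosome 1 (6135176 to 6158609, plus strand). blvra is on chromosome 2 (49844630 to 49860723), sdha on chromosome 19 (7276060 to 7291733), porb on chromosome 15 (1847135 to 1885247), dhrs12 on chromosome 9 (23808546 to 23812636) and cbr1 on chromosome 1 (47165842 to 47173403). A match is a description of letters, not of a working site. The motif search was made on zebrafish promoters of light-induced genes, and neither cavefish promoters nor promoters of other genes were searched here.

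At the 2-fold size, more names had the larger response in PAC-2 than the smaller. In the edgeR quasi-likelihood fit with an interaction term, the PAC-2 response exceeded the EPA response for 58 names (0.93% of those tested) and fell short of it for 22 (0.353%). A difference was called where it was 1 or more in log2 units and its adjusted p was below 0.05. Without the size limit the order turned, with 1100 names higher (17.6%) and 1704 lower (27.3%) at that adjusted p. Within PAC-2, 79 names rose (1.27%) and 8 fell (0.128%), where the call required 2-fold and an adjusted p below 0.001. Within EPA, 24 rose (0.385%) and 0 fell. For the 0, edgeR gave 610 names lower in EPA at an unadjusted p under 0.05, of which 2 were lower by at least 1 on the log2 scale, and DESeq2 also called 0. With the replicate number as a block, 2 names were called lower in EPA, CH25H and ISPD. Joining these calls, 47 names rose in PAC-2 only (0.754%), 6 fell in PAC-2 only (0.0962%), 6 rose in EPA only (0.0962%) and 0 fell in EPA only, where "only" means that the difference was called and the other line did not pass its own threshold in that direction. Another 7 names rose in both lines and 18 differed between the lines with neither line passing its own threshold. A stricter test, of whether the difference itself exceeded 1 on the log2 scale (glmTreat), called 22 names higher and 6 lower.

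**Figure D1:**
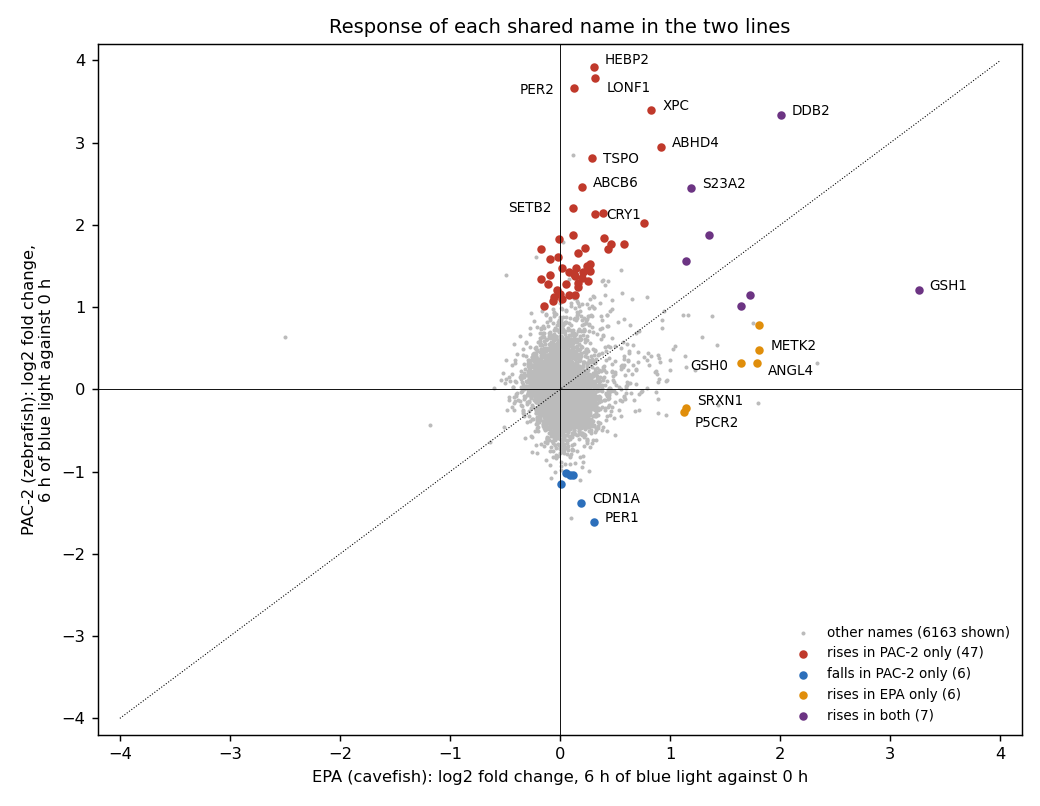
Each point is a name tested in both lines, with the EPA log2 fold change (6 h against 0 h) on the x axis and the PAC-2 log2 fold change on the y axis; the dotted line marks equal responses, and 6 names beyond the axes are left out. Most names sit near 0 in both lines, the 47 names that rose in PAC-2 only stand over EPA values of -0.17 to 0.92, and the 6 that rose in EPA only stand to the right of it.

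The 79 names that rose in PAC-2 had a median log2 fold change of 1.33 there and of 0.23 in EPA, where the median over all names was 0.01. In EPA, 68 of the 79 had a value above 0 (3414 of all 6235 names did) and 7 reached 1 (30 of all names did). The 24 names that rose in EPA had a median of 1.32 in EPA and of 0.71 in PAC-2, where all names had a median of -0.04. Of the 24, 22 had a PAC-2 value above 0 (2702 of all 6235 names did). The 47 names that rose in PAC-2 only had a median of 1.5 in PAC-2 and 0.14 in EPA. In all 47, each PAC-2 library at 6 h lay above each at 0 h (25.2% of all names did). These names were chosen by their PAC-2 rise in the same libraries, so that this separation is no independent evidence. The EPA change of 20 of the 47 had an adjusted p under 0.05, upward in 19 (11.3% of all names passed upward and 4.04% downward), and for 8 of them (ABHD4, CBR1, COQ8B, CRY1, DHR12, LONF1, SDHA and XPC) it was upward and under 0.001 at less than 2-fold (3.42% of all names passed upward at any size), so that the class holds names with a small EPA rise as well as names with none detected. The names were measurable in EPA. Each of the 47 had at least 1 CPM in every EPA library at 0 h, as did 6218 of all 6235 names. The name of this class nearest the threshold on the difference was THAS at 1.02, and of the names whose PAC-2 rise was called without the difference, CC038 came nearest to it at 0.99.

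The heme-handling name HEBP2 had the largest called difference of all names. Of the names described here, PER2, LONF1, ANKS3 and XPC came next, before the heme-handling names TSPO and ABCB6. HEBP2 (heme-binding protein 2, a SOUL-domain protein) stood at 65.2, 68.6 and 73.6 CPM in PAC-2 at 0 h and at 1107, 1037 and 985 CPM at 6 h. In EPA it was at 24.3, 24.6 and 26.3 CPM and then at 32.3, 29.1 and 31.9 CPM. Both sets of groups were apart, but the PAC-2 libraries rose 15.1-fold and the EPA libraries 1.24-fold. The difference was 3.61 ± 0.09 (SE; edgeR adjusted p = 1.01e-11). This name adds 4 Trinity genes in PAC-2 and 1 in EPA. The most abundant at 6 h in PAC-2 went from 12.5 ± 0.8 to 883 ± 54 CPM (SD, n = 3), a ratio of 70.7, the next from 32.5 ± 2.7 to 139 ± 8.9 CPM, and the third stood at 21.5 ± 6.2 and 13.9 ± 7.9 CPM. In the zebrafish genome counts the gene soul5 rose by 6.22 ± 0.07 on the log2 scale and hebp2 by 5.39 ± 0.11 (243 of 17412 genes, 1.4%, were called higher there), while soul4 stood at 0.50 ± 0.11 and soul2 at 0.68 ± 0.31, neither called. The study's gene list names the single EPA gene hebp2, and no EPA gene was tied to soul5 here.

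TSPO, the translocator protein of the outer mitochondrial membrane that binds porphyrins, was at 100, 106 and 105 CPM in PAC-2 at 0 h and at 767, 723 and 707 CPM at 6 h. EPA held 15.3, 17.1 and 19.5 CPM and then 21.6, 20.1 and 21.7 CPM. The PAC-2 rise was 7.06-fold, EPA gave 0.29 ± 0.07 on the log2 scale (adjusted p = 0.0185), and the difference was 2.53 ± 0.10 (adjusted p = 1.53e-09).

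ABCB6, a porphyrin transporter, rose in PAC-2 from 2.20, 2.21 and 2.08 CPM to 12.6, 11.9 and 11.2 CPM. Its summed EPA level was 62.4, 60.5 and 60.6 CPM at 0 h and 68.1, 75.1 and 66.8 CPM at 6 h. The difference was 2.26 ± 0.10 (adjusted p = 6.23e-09). The EPA sum hid unequal parts. One EPA Trinity gene named ABCB6 stayed at 53.2 ± 1.0 and 52.1 ± 3.8 CPM, and the other went from 7.91 ± 0.29 to 17.9 ± 0.9 CPM, a ratio of 2.26 with all 6 h libraries above all 0 h libraries, against 5.50 for the only PAC-2 Trinity gene of that name. The 2.26-fold ratio of this EPA Trinity gene was seen after the data were examined and has no test of its own. The study's gene list assigns cavefish abcb6a to this second Trinity gene. The sum and the more abundant gene alone both placed ABCB6 among the names that rose in PAC-2 only, and its place with the second gene alone was not tested.

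Of the enzymes that break heme down, BIEA and HMOX2 rose in PAC-2, and of those that make it, HEMH did. BIEA (biliverdin reductase A, which turns the heme breakdown product biliverdin into bilirubin) went from 19.2, 16.8 and 16.3 CPM to 49.7, 48.1 and 48.1 CPM in PAC-2 and from 17.2, 16.2 and 16.6 CPM to 18.4, 18.9 and 18.1 CPM in EPA, with a difference of 1.33 ± 0.08 (adjusted p = 9.15e-08). HMOX2, the constitutive heme oxygenase that opens the heme ring, rose 2.77-fold in PAC-2 and stood at 17.5, 18.0 and 17.2 CPM and at 17.3, 18.8 and 16.9 CPM in EPA (difference 1.46 ± 0.08, adjusted p = 3.30e-08). HEMH (ferrochelatase, which inserts the iron into heme) went from 8.10, 5.47 and 8.26 CPM to 24.7, 26.2 and 23.8 CPM in PAC-2. In EPA its libraries held 5.97, 6.13 and 4.92 CPM and then 8.43, 10.2 and 6.59 CPM, an EPA value of 0.58 ± 0.17 (adjusted p = 0.0385), and the difference was 1.19 ± 0.23 (adjusted p = 0.00144). NCPR (cytochrome P450 reductase) and THAS (thromboxane synthase, a heme enzyme) differed by 1.17 ± 0.11 and 1.02 ± 0.14. The THAS difference lost its call in 5 of the 12 fits that left out 1 library, at 0.96 (without PAC-2 6 h replicate 2) to 1.00, and the PAC-2 rise of NCPR fell just under 2-fold without PAC-2 6 h replicate 1, at 1.00. Matched by full entry name, the NCPR difference was 0.89 and not called.

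Of the 27 tested names on the list of heme synthesis, transport and binding, 8 differed upward between PAC-2 and EPA and 0 downward, 9 rose in PAC-2 and 0 rose in EPA. The 0 in EPA is for summed names. It hides the EPA Trinity gene that the study's list ties to abcb6a, which went from 7.91 to 17.9 CPM. The shares over all names were 0.93% upward, 0.353% downward, 1.27% rising in PAC-2 and 0.385% rising in EPA. The median difference of the list was 0.51, beside -0.05 over all names. The list was drawn up around genes that the study chose on these samples and is no independent evidence of its direction. The tested synthesis enzymes other than HEMH had no called difference and went both ways. HEM1 (aminolevulinate synthase, the entry step) had a difference of -0.45 ± 0.06, with -0.12 ± 0.04 in PAC-2 and 0.33 ± 0.04 in EPA. HEM3 had -0.27 ± 0.06 and HEM6 -0.27 ± 0.07. Above 0 were HEM2 at 0.32 ± 0.10, DCUP at 0.64 ± 0.06 and PPOX at 0.60 ± 0.11. The heme exporter FLVC1 stood at -0.14 ± 0.08 and the iron store subunit FRIH at -0.10 ± 0.07. Among names outside the fixed list, HRG1B (a heme transporter) had a PAC-2 log2 fold change of 1.29 ± 0.16 and a difference of 1.13 ± 0.23, COX15 (which makes heme A for cytochrome oxidase) 1.43 ± 0.05 and 1.22 ± 0.07, and ISCA1 (an iron-sulfur cluster protein) 1.40 ± 0.08 and 1.28 ± 0.10, all in the class that rose in PAC-2 only. These 3 were picked after their values were seen.

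**Figure D2:**
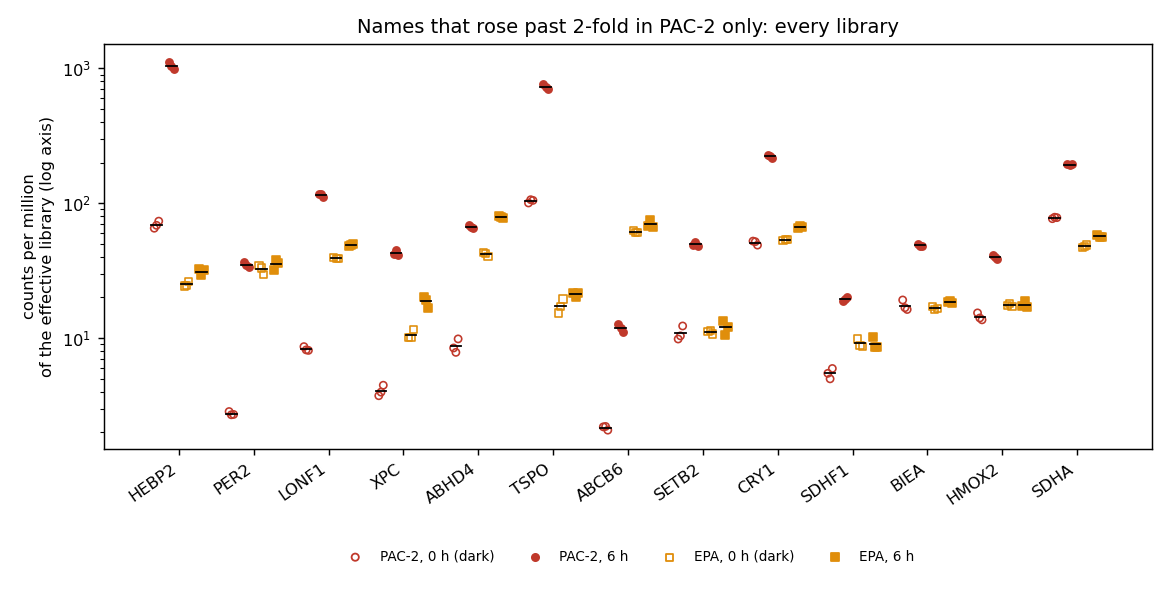
CPM in every library (log axis) for 13 names that rose in PAC-2 only; circles are PAC-2, squares EPA, open symbols 0 h and filled symbols 6 h, and bars are means of 3. For each name the filled circles lie clear above the open circles, while the EPA squares of both times lie close together or, for XPC and ABHD4, at a smaller distance. The ABCB6 squares are the sum of 2 EPA Trinity genes that did not move alike.

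The clock genes split in direction. PER2, a light-induced repressor of the clock, went from 2.85, 2.70 and 2.71 CPM to 36.5, 34.7 and 33.8 CPM in PAC-2, a 12.7-fold rise. In EPA it stood at 34.4, 33.1 and 29.7 CPM in the dark and at 32.2, 38 and 36.0 CPM after 6 h, with overlapping libraries, and the difference was 3.54 ± 0.12 (adjusted p = 2.69e-10). CRY1, a cryptochrome repressor, rose from 52.4, 51.8 and 48.9 CPM to 229, 225 and 218 CPM in PAC-2. In EPA it went from 53.2, 53.7 and 53.7 CPM to 65.9, 67.8 and 66.3 CPM, a 1.25-fold rise that was free of overlap (adjusted p = 6.56e-05), and the difference was 1.82 ± 0.05 (adjusted p = 7.42e-11).

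CRY1 adds 7 Trinity genes in PAC-2 and 3 in EPA, and these did not move alike. In PAC-2 the most abundant went from 28.5 ± 1.2 to 142 ± 1.8 CPM, and the one matched to a plant CRY1 from 1.97 ± 0.49 to 22.2 ± 0.8 CPM, while the lowest stood at 2.46 ± 0.27 and 2.84 ± 0.14 CPM. In EPA the ratios were 1.23, 1.51 and 0.99. In the zebrafish genome counts cry1aa rose by 1.88 ± 0.05, cry1bb by 3.03 ± 0.07 and cry5, a light-dependent repair photolyase, by 4.6 ± 0.07 on the log2 scale, and cry1ab gave 0.13 ± 0.12.

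PER1, also a repressor, moved the other way. It fell in PAC-2 from 4.79, 4.2 and 3.95 CPM to 1.53, 1.42 and 1.27 CPM. The EPA libraries held 24.0, 23.5 and 22.5 CPM at 0 h and 27.6, 33.1 and 25.8 CPM at 6 h, all above the dark libraries, at 0.31 ± 0.08 (adjusted p = 0.0193). The difference of -1.93 ± 0.18 (adjusted p = 3.74e-06) was the largest of any name that fell in PAC-2 only. The 3 EPA Trinity genes named PER1 had ratios of 1.80, 0.80 and 0.97, so that the direction in EPA depends on which is taken. In the zebrafish genome counts both per1a and per1b fell, by 2.56 and 1.62 on the log2 scale.

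Of the 11 clock names tested, 2 differed upward (0.93% of all names did), 1 downward (0.353%) and 8 were not called. BMAL1 and CLOCK, the activators of the clock, had differences of 0.25 ± 0.07 and 0.17 ± 0.07, and CRY2 had 0.15 ± 0.08. CIART, a clock repressor, had -0.54 ± 0.06, with -0.66 ± 0.05 in PAC-2 and -0.12 ± 0.04 in EPA. Among the factors that bind D-boxes, none of the 3 tested was called (1.28% of all names were). TEF stood at 0.95 ± 0.07 in PAC-2 and 0.18 ± 0.08 in EPA (difference 0.77 ± 0.11, adjusted p = 0.000106), NFIL3 at 0.84 ± 0.05 and 0.20 ± 0.05 (difference 0.64 ± 0.07, adjusted p = 2.06e-05), and HLF at -0.39 ± 0.08 and -0.06 ± 0.07. Each of the TEF and NFIL3 differences passed the p threshold but not the 2-fold size. The name NFIL3 adds several genes. In the genome counts nfil3-6 rose by 3.23 ± 0.12, nfil3-5 stood at 0.50 ± 0.11, and dbpb fell by 1.6.

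DNA repair genes gave differences in size as well as in presence. XPC, the damage sensor of global nucleotide excision repair, rose in PAC-2 from 3.74, 3.97 and 4.47 CPM to 41.7, 44.8 and 41.3 CPM. In EPA it also rose, from 10.1, 10.1 and 11.5 CPM to 20.3, 19.2 and 16.7 CPM, by 0.83 ± 0.08 on the log2 scale (adjusted p = 8.56e-06), which is below the 2-fold size. The difference was 2.57 ± 0.12 (adjusted p = 1.01e-08). DDB2, which helps XPC find lesions left by ultraviolet light, passed in both lines. It went from 1.77, 1.72 and 2.40 CPM to 18.8, 19.8 and 20.1 CPM in PAC-2, a 10.1-fold rise, and from 2.14, 2.39 and 2.38 CPM to 10.1, 9.18 and 8.48 CPM in EPA, a 4.02-fold rise. The PAC-2 rise exceeded the EPA rise by 1.32 ± 0.15 (adjusted p = 2.51e-05).

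APEX1, the nuclease that cuts at abasic sites, rose in PAC-2 only (32.4, 33.2 and 36.5 CPM to 82.9, 84.5 and 81.3 CPM), and in EPA it held 275, 274 and 285 CPM and then 280, 239 and 255 CPM. NEIL1, a glycosylase for oxidised bases, rose in PAC-2 by 1.1 ± 0.16 and stood at 0.66 ± 0.18 in EPA, and the difference of 0.44 ± 0.24 was not called (adjusted p = 0.156). With the replicate block the PAC-2 rise of NEIL1 was no longer called, at 1.12, nor was it without PAC-2 0 h replicate 1, at 0.86. Of the 17 repair names tested, 3 differed upward (XPC, APEX1 and DDB2) and 0 downward, beside 0.93% and 0.353% of all names. The list's median difference was -0.05, the same as over all names. ERCC1, XPF and DDB1, which act in the same excision pathway, had differences of -0.27 ± 0.12, -0.05 ± 0.08 and -0.05 ± 0.07. The names PHR, PHRA and CRYD were in the PAC-2 table only and are described with the names of 1 table. The photolyase gene cry5 is given with the name CRY1 above.

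SDHF1 and SDHA were the called differences among names of respiratory complex II. SDHF1, an assembly factor of respiratory complex II (succinate dehydrogenase), went from 5.48, 4.99 and 5.95 CPM to 18.9, 19.6 and 20.0 CPM in PAC-2, and in EPA from 9.84, 8.84 and 8.69 CPM to 10.2, 8.58 and 8.58 CPM, with a difference of 1.84 ± 0.11 (adjusted p = 1.21e-07). SDHA, the flavin subunit that oxidises succinate, rose in PAC-2 from 76.8, 78.7 and 78.2 CPM to 194, 191 and 195 CPM. In EPA it rose by less, from 46.9, 47.8 and 49.0 CPM to 58.1, 56.5 and 56.6 CPM (0.25 ± 0.03, adjusted p = 0.000234), and the difference was 1.06 ± 0.05 (adjusted p = 6.23e-09). The assembly factor SDHF2 rose in PAC-2 by 1.32 ± 0.04 and was at 0.43 ± 0.04 in EPA, a difference of 0.89 ± 0.06 that is under the 2-fold size. All 7 complex II names had differences above 0 (2673 of all 6235 names did), and 2 were called (1.28% of all names were). The median difference was 0.78. The smallest was 0.05 ± 0.09, for the membrane anchor C560. The study names SDHA, SDHB, SDHF1, SDHF2 and SDHF3 as light-induced on these same PAC-2 libraries. The shared direction of the list is therefore no independent evidence.

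Among 23 names of mitochondrial proteases, import and shape, 6 rose in PAC-2 (1.27% of all names did) and 0 in EPA (0.385%). The list holds genes that the study names as light-induced on these PAC-2 libraries, such as AFG32 and ADCK1. It is no independent evidence of its direction. Only 1 difference was called (1.28% of all names). This was AFG32 (a subunit of the m-AAA protease of the inner membrane), at 17.6, 17.3 and 17.1 CPM and then 37.3, 35.2 and 37.0 CPM in PAC-2 and at 57.8, 63.8 and 60.8 CPM and then 66.9, 57.7 and 50.0 CPM in EPA (difference 1.13 ± 0.12, adjusted p = 1.1e-05). BNIP3, a mitophagy receptor, had 0.94 ± 0.09, SPG7, the partner of AFG32, 0.85 ± 0.06, YMEL1, the i-AAA protease, 0.82 ± 0.08, FAKD1 0.73 ± 0.09 and ADCK1 0.61 ± 0.13. For these the PAC-2 rise was called and the difference was not. The YMEL1 difference was called, at 1.23, with only its highest Trinity gene in each line, and that of BNIP3 just passed without PAC-2 6 h replicate 2. Without PAC-2 6 h replicate 1 the PAC-2 rises of SPG7 and FAKD1 were just under 2-fold. LONM, the matrix protease Lon, ran the other way, with 0.02 ± 0.04 in PAC-2, 0.79 ± 0.04 in EPA and a difference of -0.77 ± 0.05 (adjusted p = 3.99e-07), again under the 2-fold size.

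Of the names with Gene Ontology terms, 17 of 46 that rose in PAC-2 only carried the term mitochondrion (37.0%), against 732 of 6159 tested names (11.9%). Heme binding was carried by 7 of the 46 (15.2%) against 34 of 6159 (0.552%), and oxidoreductase activity by 7 of 46 (15.2%) against 117 of 6159 (1.90%). Circadian rhythm was carried by 3 of 46 (6.52%) against 42 of 6159 (0.682%). DNA repair was carried by 1 of 46 (2.17%) against 150 (2.44%), and nucleus by 15 (32.6%) against 2333 (37.9%). Of the 6 names that rose in EPA only, 2 carried mitochondrion (33.3%), 1 oxidoreductase activity (16.7%), 1 circadian rhythm (16.7%) and 0 heme binding, DNA repair or nucleus. These shares are descriptions with no test, and a name carries the terms of all Trinity genes added under it. The terms were taken as deposited and have gaps and doubtful entries. ARIP4, with 1 Trinity gene in each line, counted under heme binding and oxidoreductase activity, while SDHA and HEMH did not count under mitochondrion.

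Of 11 tested oxidoreductases that the study names as light-induced, 7 differed upward, 9 rose in PAC-2 and 0 rose in EPA. The matching shares over all names were 0.93%, 1.27% and 0.385%. All 11 had differences above 0 (2673 of all 6235 names did), with a median of 1.18. These genes were chosen by the study on the PAC-2 libraries, so that their PAC-2 direction is not independent evidence. RETST (retinol saturase) went from 6.79, 7.80 and 7.11 CPM to 20.1, 19.1 and 17.4 CPM in PAC-2 and from 34.7, 34.4 and 32.0 CPM to 29.8, 32.8 and 32.0 CPM in EPA, with a difference of 1.49 ± 0.10 (adjusted p = 1.77e-07). CBR1, a carbonyl reductase, rose 4.08-fold in PAC-2 and, in EPA, from 243, 246 and 271 CPM to 438, 406 and 443 CPM, 1.69-fold, a difference of 1.27 ± 0.11 (adjusted p = 3.12e-06). The dehydrogenases DHR12, DHR13 and DHR11 differed by 1.44 ± 0.07, 1.24 ± 0.09 and 1.04 ± 0.10, and RNLS (renalase, a flavin oxidase) by 1.18 ± 0.12.

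Called differences reached past these groups. LONF1, a RING and Lon-substrate-domain protein, went from 8.64, 8.17 and 8.10 CPM to 118, 118 and 111 CPM in PAC-2, and from 39.7, 38.8 and 38.9 CPM to 48.3, 48.9 and 49.4 CPM in EPA. Its difference of 3.47 ± 0.06 (adjusted p = 3.25e-13) had the smallest adjusted p of all names. ABHD4, a lipase of N-acyl phospholipids, rose in both by unequal amounts, from 8.44, 7.83 and 9.86 CPM to 68.6, 66.4 and 65.9 CPM in PAC-2 and from 42.9, 42.4 and 40.3 CPM to 80.5, 79.5 and 77.7 CPM in EPA, where 1.89-fold stayed under the 2-fold size. SETB2, a histone H3 lysine methyltransferase, rose 4.61-fold in PAC-2, and its EPA libraries overlapped at 11.2, 11.3 and 10.7 CPM and 13.4, 10.6 and 12.1 CPM. ZN710, a zinc finger protein, rose 3.27-fold in PAC-2 with an EPA value of -0.17 ± 0.05, a difference of 1.88 ± 0.08. The efflux pumps MRP1 and MRP4 differed by 1.25 ± 0.09 and 1.17 ± 0.09. They were the only called names among the 5 tested of the list of xenobiotic receptors and their targets (1.28% of all names were called).

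The 6 names that fell in PAC-2 only were PER1, CDN1A, HES6, UBE2C, CDC20 and ACT2. Apart from PER1, their EPA values were between 0.00 and 0.19 on the log2 scale. CDN1A (p21, an inhibitor of cyclin-dependent kinases) went from 24.5, 25 and 26.7 CPM to 8.94, 9.94 and 10.4 CPM in PAC-2. In EPA it was at 31.8, 30.0 and 33.3 CPM and then at 36.2, 38 and 34.4 CPM, and the difference was -1.57 ± 0.09 (adjusted p = 6.74e-08). UBE2C and CDC20, which act in mitosis, fell by just over 2-fold, and with scaling on the shared names both stood just under it, as did UBE2C without PAC-2 0 h replicate 3, and lost their calls. UBE2C, the conjugating enzyme of the anaphase-promoting complex, went from 137, 142 and 151 CPM to 66.8, 70.1 and 72.6 CPM in PAC-2 and from 40.9, 42.3 and 40.7 CPM to 46.9, 43.5 and 43.5 CPM in EPA (difference -1.15 ± 0.07, adjusted p = 1.03e-07). CDC20, the activator of the same complex, fell from 76.3, 75 and 79.8 CPM to 36.9, 37.4 and 38.3 CPM in PAC-2 and overlapped in EPA at 88.5, 84.7 and 72.3 CPM and 83.2, 84.7 and 93.3 CPM (difference -1.12 ± 0.10, adjusted p = 1.89e-06).

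HES6, a transcriptional cofactor of the Hes family, fell from 4.42, 4.42 and 4.67 CPM to 1.94, 2.16 and 1.99 CPM in PAC-2 and was at 6.83, 6.27 and 6.31 CPM and 6.83, 6.58 and 6.08 CPM in EPA. ACT2, an actin entry of the frog *Xenopus*, fell 2-fold in PAC-2, at -1.02 ± 0.08, and that fall lost its call without PAC-2 0 h replicate 3, at -0.94, without PAC-2 6 h replicate 1, where it was just under 2-fold, and with scaling on the shared names, at -0.98. With that scaling 4 names fell in PAC-2 and 3 in PAC-2 only. In the zebrafish genome counts, where 13 of 17412 genes were called lower at 6 h (0.0747%), cdkn1a stood at -1.27 ± 0.08, cdc20 at -1.04 ± 0.04 and hes6 at -1.15 ± 0.13, all called. Of 2 genes named ube2c there, 1 fell (-1.03 ± 0.04) and the other gave 0.03 ± 0.07.

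Of 21 names tested on the list of DNA replication and mitosis, 1 (CDC20) was called lower in PAC-2 (0.128% of all names were) and 0 in EPA. The median was -0.60 in PAC-2 and 0.00 in EPA, and the median difference was -0.52 beside -0.05 over all names. PLK1, a mitotic kinase, was at -0.94 ± 0.04 in PAC-2 and 0.01 ± 0.04 in EPA, KIF11, a spindle motor, at -0.92 ± 0.04 and -0.10 ± 0.05, and CCNB1, cyclin B1, at -0.89 ± 0.06 and 0.01 ± 0.06. The ribonucleotide reductase subunits RIR1 and RIR2, which supply DNA precursors, had differences of 0.31 ± 0.06 and 0.70 ± 0.07, against the rest of the list. MCM6 had a called difference of -1.66 ± 0.55 (adjusted p = 0.0346) that is no comparison of the same gene. In PAC-2 the name was carried by a rare Trinity gene matched to a plant entry, at 7.43 ± 2.24 and 2.64 ± 2.52 CPM, while the zebrafish gene mcm6 stood at 395 ± 11 and 286 ± 8 CPM in the genome counts.

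**Figure D3:**
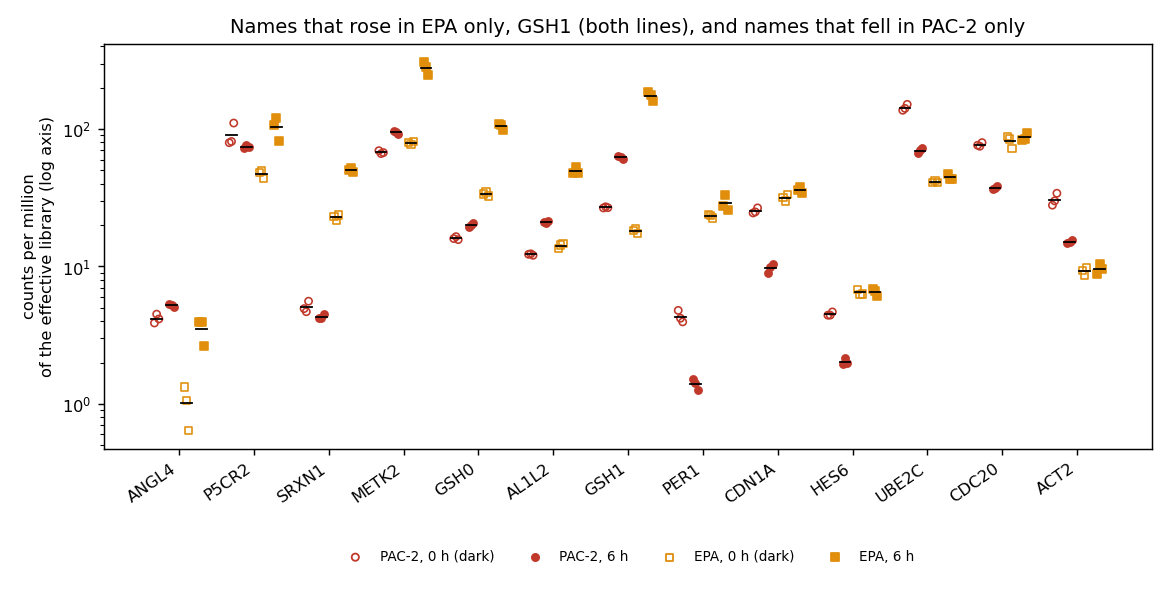
CPM in every library (log axis) for the 6 names that rose in EPA only, GSH1, which rose in both lines, and the 6 names that fell in PAC-2 only; circles are PAC-2, squares EPA, open symbols 0 h, filled symbols 6 h, bars are means of 3. From ANGL4 to GSH1 the filled squares lie above the open squares, and from PER1 to ACT2 the filled circles lie below the open circles with the squares close together.

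In EPA, GSH1 had the largest rise of the names called there, and it rose in PAC-2 as well. GSH1 and GSH0 are the catalytic and the modifier subunit of glutamate-cysteine ligase, the first step of glutathione synthesis. GSH1 rose in both lines, from 26.7, 27.2 and 26.8 CPM to 64.1, 62.3 and 60.5 CPM in PAC-2, 2.32-fold, and from 18.4, 18.9 and 17.4 CPM to 185, 178 and 159 CPM in EPA, an EPA log2 fold change of 3.26 ± 0.06. The EPA rise was the larger by 2.04 (difference -2.04 ± 0.08, adjusted p = 1.78e-09), the largest difference in this direction among the names described here. GSH0 rose in EPA only, from 33.7, 34.8 and 32.5 CPM to 109, 108 and 98.5 CPM. PAC-2 held 16.0, 16.5 and 15.7 CPM and then 19.3, 20.1 and 20.9 CPM, 1.25-fold with no overlap, and the difference was -1.32 ± 0.07 (adjusted p = 5.60e-08).

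SRXN1, sulfiredoxin, which repairs overoxidised peroxiredoxins, rose in EPA from 23.1, 21.5 and 23.7 CPM to 50.0, 52.3 and 48.8 CPM. In PAC-2 it was at 4.93, 4.69 and 5.59 CPM and then at 4.2, 4.23 and 4.50 CPM, and the difference was -1.38 ± 0.10 (adjusted p = 4.25e-07). GSHR (glutathione reductase) and GSTP1 (a glutathione transferase) rose in EPA by 1.03 ± 0.04 and 1.12 ± 0.07 and stood at 0.50 ± 0.04 and 0.90 ± 0.07 in PAC-2, with differences of -0.53 ± 0.06 and -0.22 ± 0.10 that were not called. NF2L2 (Nrf2, the activator of antioxidant genes) itself went the opposite way. It rose in PAC-2 only, from 21.0, 17.4 and 16.8 CPM to 51.6, 51.2 and 46.1 CPM, and held 76.4, 79.7 and 80.5 CPM and then 80.7, 84.7 and 84.4 CPM in EPA (difference 1.35 ± 0.10, adjusted p = 4.89e-07).

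Of the 15 tested names of the glutathione and Nrf2 list, 5 rose in EPA and 2 in PAC-2 (0.385% and 1.27% of all names did). On this list 3 differences were called in the EPA direction and 1 in the PAC-2 direction (0.353% and 0.93% of all names). The list was drawn up with earlier results of these data known. The list's median difference was -0.39, with 0.32 in PAC-2 and 0.49 in EPA. The pentose phosphate enzymes 6PGD, TKT and TALDO, which supply or recycle NADPH precursors, stood at 0.97 ± 0.04, 0.49 ± 0.04 and 0.45 ± 0.04 in EPA and at 0.11 ± 0.05, 0.09 ± 0.04 and 0.02 ± 0.04 in PAC-2, all under 2-fold.

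The other names that rose in EPA only were METK2, AL1L2, P5CR2 and ANGL4. METK2 (methionine adenosyltransferase, which makes S-adenosylmethionine) went from 79.8, 77.7 and 81.2 CPM to 306, 284 and 247 CPM in EPA, and from 69.7, 66.3 and 67.5 CPM to 96.3, 94.7 and 92.5 CPM in PAC-2, with a difference of -1.33 ± 0.09 (adjusted p = 2.14e-07). The rise came from 1 of 3 EPA Trinity genes, which went from 44.9 ± 1.0 to 244 ± 31 CPM, while the others had ratios of 0.99 and 1.05. That Trinity gene is matched to another species' entry than the PAC-2 ones, and matching by full entry name dropped it and reversed the difference to 0.48. AL1L2 (a mitochondrial enzyme of folate metabolism) rose in EPA from 13.5, 14.3 and 14.7 CPM to 47.7, 52.7 and 48.1 CPM and in PAC-2 from 12.3, 12.4 and 12.1 CPM to 21.0, 20.7 and 21.4 CPM, 1.72-fold (difference -1.03 ± 0.07, adjusted p = 4.89e-07), and the difference lost its call at -0.99 without EPA 0 h replicate 1, at -0.98 without EPA 6 h replicate 2 and at -0.97 with scaling on the shared names.

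P5CR2, a mitochondrial enzyme of proline synthesis, rose in EPA from 48.3, 49.8 and 43.7 CPM to 107, 121 and 81.9 CPM and held 79.6, 81.3 and 111 CPM and then 73.2, 76.9 and 73.6 CPM in PAC-2. Its EPA rise lost its call in 7 of the 12 fits that left out 1 library, at 1.00 to 1.16 on the log2 scale, the lowest without EPA 6 h replicate 2. ANGL4, angiopoietin-like 4, was low in EPA, at 1.33, 1.06 and 0.64 CPM and then 3.96, 3.97 and 2.63 CPM, and at 3.88, 4.50 and 4.15 CPM and then 5.30, 5.23 and 5.09 CPM in PAC-2 (difference -1.46 ± 0.26, adjusted p = 0.000604).

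The names on the list of amino acid stress and one-carbon synthesis responded by less than 2-fold for the most part. Of 18 names tested, 0 differences were called (1.28% of all names were), and the median was 0.62 in EPA, 0.30 in PAC-2 and -0.27 for the difference. METK2, AL1L2 and P5CR2, which rose in EPA only with called differences, are enzymes of related pathways that this list does not hold. Its counts therefore do not cover all genes of this kind. CHAC1, which degrades glutathione, rose in both lines, from 131, 116 and 133 CPM to 282, 273 and 285 CPM in PAC-2 and from 87.6, 84.7 and 94.3 CPM to 307, 280 and 294 CPM in EPA, and its difference of -0.58 ± 0.08 was under the 2-fold size. SERC and GLYM (serine synthesis and serine to glycine conversion) were at 0.99 ± 0.05 and 0.88 ± 0.06 in EPA and 0.36 ± 0.04 and 0.19 ± 0.07 in PAC-2. SESN2, a stress-induced sestrin, rose in EPA by 1.75 ± 0.06 and was at 0.81 ± 0.06 in PAC-2, a difference of -0.94 ± 0.08. Heat shock and chaperone names and immediate early factors had 0 calls in either line among 11 and 12 tested. Over all names 1.27% rose and 0.128% fell in PAC-2, and 0.385% rose and 0 fell in EPA. Lists this short can hold 0 calls at those shares.

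Besides GSH1, DDB2 and CHAC1, the names that rose in both lines were S23A2, S19A2, OSGI2 and DDT4L. S23A2, a vitamin C transporter, went from 1.17, 0.90 and 0.76 CPM to 5.65, 5.36 and 4.76 CPM in PAC-2 and from 12.8, 14.5 and 10.2 CPM to 29.1, 30.6 and 25.8 CPM in EPA, and the PAC-2 rise was larger by 1.25 ± 0.24 (adjusted p = 0.00115). S19A2, a thiamine transporter, differed by 0.52 ± 0.19, OSGI2 by 0.42 ± 0.09 and DDT4L, an inhibitor of mTORC1 signalling, by -0.63 ± 0.07, none of them past the 2-fold size. The PAC-2 rise of DDT4L lost its call in 3 of the 12 fits that left out 1 library (PAC-2 0 h replicate 3, PAC-2 6 h replicate 1 or PAC-2 6 h replicate 2), at 0.98 at the lowest, and with it its place among names that rose in both lines. PRDX1, a peroxiredoxin, rose in PAC-2 from 153, 151 and 164 CPM to 360, 341 and 333 CPM and in EPA from 361, 348 and 381 CPM to 478, 467 and 498 CPM, and its difference of 0.74 ± 0.07 was not called.

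**Figure D4:**
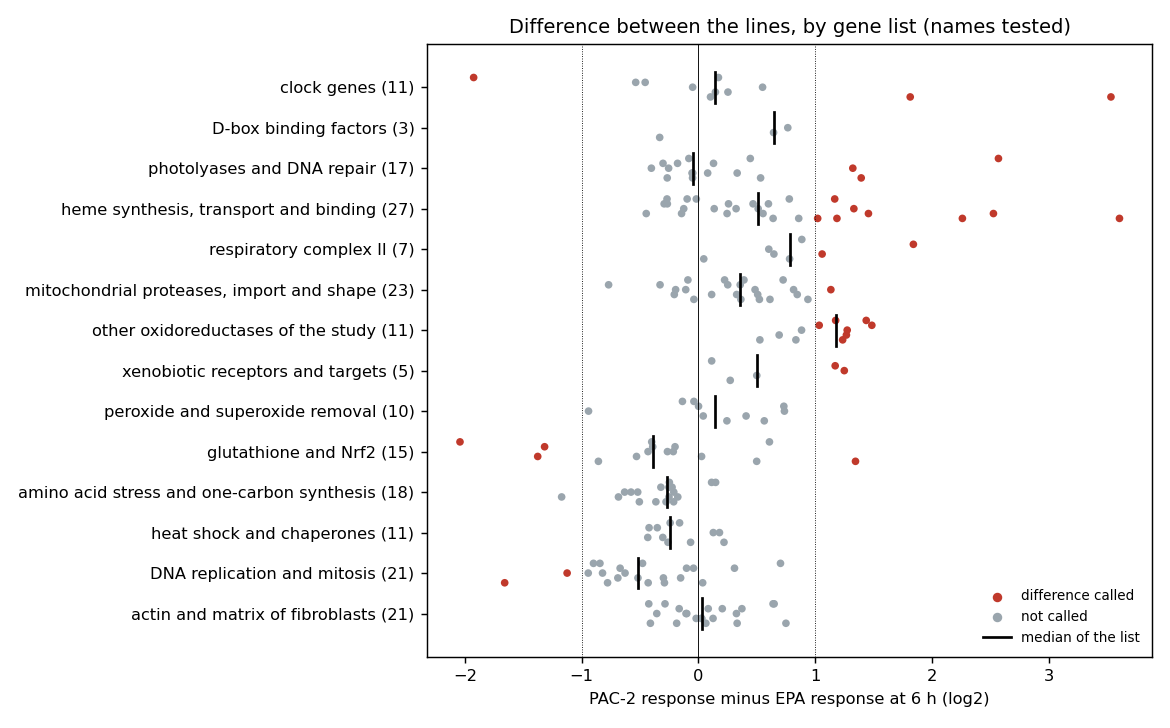
Each point is a tested name, placed by its PAC-2 response minus its EPA response (log2) within its gene list, with red for differences called and grey for the rest; black bars are list medians and dotted lines mark 2-fold. The bars lie right of 0 for complex II (0.78) and the oxidoreductases (1.18), left of 0 for the glutathione list (-0.39) and for replication and mitosis (-0.52), and near 0 for DNA repair (-0.05).

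**Figure D5:**
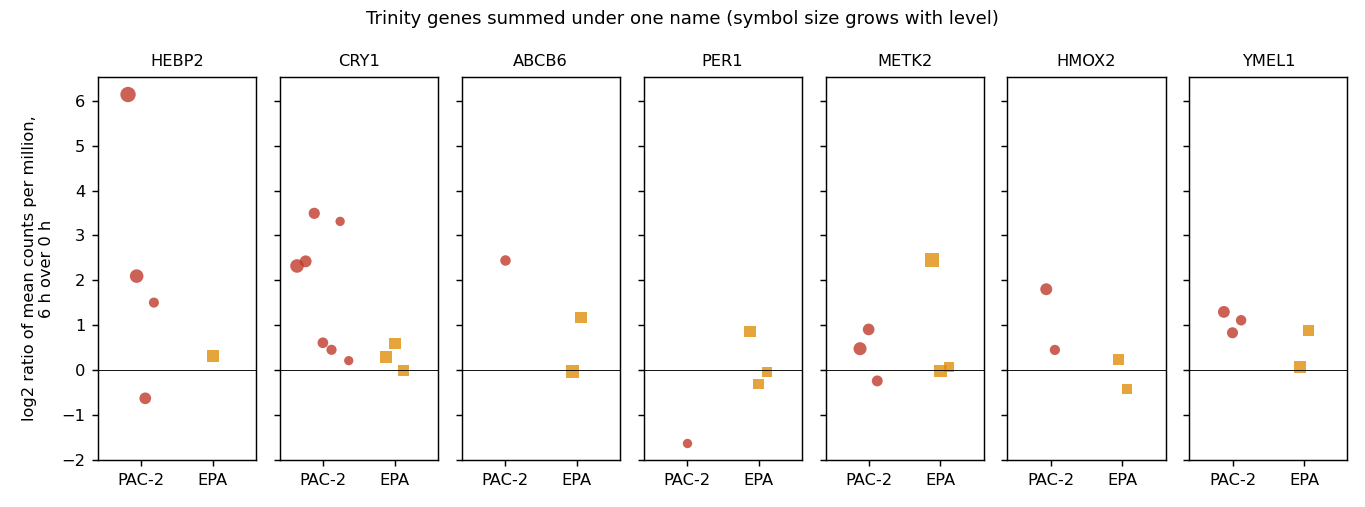
For 7 names that add several Trinity genes, each symbol is 1 Trinity gene, placed by the log2 ratio of its mean CPM at 6 h over that at 0 h (n = 3 each), with circles for PAC-2, squares for EPA and symbol size growing with level. The parts of a name spread widely, from a ratio of 70.7 down to 0.65 for HEBP2 in PAC-2, and 1 of 2 EPA genes of ABCB6 and 1 of 3 of METK2 carry the rise.

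The largest called difference outside the classes was that of ANKS3, at 3.14 ± 0.77 (adjusted p = 0.00796), with neither line passing its threshold. It rested on few reads. The EPA libraries held 51, 49 and 24 counts at 0 h and 23, 0 and 0 at 6 h, and PAC-2 went from 4.82, 4.46 and 5.27 CPM to 7.69, 7.49 and 7.47 CPM. DESeq2 did not call it. TXNIP, an inhibitor of thioredoxin, had -0.99 ± 0.13 in PAC-2 and 0.26 ± 0.09 in EPA, and the difference of -1.25 ± 0.16 was called (adjusted p = 7.38e-05). IBP6 and TRPM7 were at 0.64 ± 0.07 and 0.83 ± 0.06 in PAC-2 and -0.37 ± 0.05 and -0.24 ± 0.07 in EPA, and these 2 were picked after their values were seen.

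Names found in 1 table only cannot be compared between the lines, since a name can be missing because the gene is silent, was not assembled or matched another entry. Among 1443 such names tested in PAC-2, 35 rose and 0 fell (2.43% called), and among 2199 in EPA, 8 rose and 0 fell (0.364%). The PAC-2 names included light-dependent repair enzymes. PHRA went from 1.03 ± 0.45 to 13.9 ± 1.3 CPM, CRYD (cryptochrome DASH) from 1.93 ± 0.16 to 17.3 ± 0.6 CPM and PHR, a photolyase, from 28.1 ± 0.8 to 75.8 ± 1.3 CPM (SD, n = 3). PXL2B rose from 37.7 ± 0.8 to 442 ± 34 CPM and SIR4, a mitochondrial sirtuin, by 1.90 ± 0.08 on the log2 scale. The EPA names included XCT, the cystine importer that feeds glutathione synthesis, from 0.59 ± 0.11 to 3.92 ± 0.56 CPM, AAAT, a neutral amino acid transporter, by 1.71 ± 0.08 on the log2 scale, and FRIM, a fish ferritin subunit, from 580 ± 22 to 1232 ± 52 CPM. These examples were chosen after their values were seen.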

How the data were processed

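The authors assembled the reads of each line with Trinity, applied a TPM cutoff, and named Trinity genes by BLAST-X against UniProt. They deposited salmon's expected counts for every Trinity gene, which here were summed per first entry name and rounded. The provider's deposited counts per zebrafish gene (GRCz11; aligner, annotation and strand setting not given in the sources used here) served as a check within PAC-2, and its FPKM values were not used. The deposited Gene Ontology lists, which are text and no count, gave the terms.

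Each table was scaled alone (TMM over all its Trinity genes). The difference of responses was fitted with edgeR 4.0.16 (R 4.3.3; filterByExpr, quasi-likelihood, robust, 12 libraries, 8 residual degrees of freedom; Benjamini-Hochberg over 6235 names). Standard errors of edgeR log2 values were derived, as the size of the value over the square root of its F statistic. The median biological coefficient of variation was 0.042. An exact permutation test of 3 libraries against 3 has a smallest p of 0.1 and was not used. The fit was tested on simulated data. Alternatives were DESeq2 1.42.0, other scalings, filters and name matchings, limma 3.58.1 voom weights, glmTreat, a replicate block and leaving out each library. Same-numbered PAC-2 libraries deviated together (r = 0.13, 0.15 and 0.28), the EPA ones did not (r = -0.16, 0.02 and 0.15). Averaged over names, no 2 libraries of a group agreed within sampling noise. For pairs of such libraries, the squared deviation relative to that of counting alone had means over names of 3.84 to 30.2. Its medians were lower, at 0.54 to 2.12.

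Named genes were the 10 largest called differences each way with the moving line's groups apart, the 8 largest of each class, names called in both lines, called members of the 10 main lists and genes the study measured by RT-qPCR in both lines. Members and lists were chosen with earlier results of these data known. Promoter motifs of all genes could not be searched here. The result of 1 called name is not reported here.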

Additional observations from a re-analysis of the deposited data

Results flagged for a closer look

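The differences between the lines were tested by the interaction term of the edgeR quasi-likelihood fit (3 libraries per line and time), and the PAC-2 response was larger for 58 names and smaller for 22. The values that follow are PAC-2 response minus EPA response on the log2 scale.

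Among heme-related names they were 3.61 for HEBP2, 2.53 for TSPO, 2.26 for ABCB6, 1.46 for HMOX2, 1.33 for BIEA, 1.19 for HEMH, 1.17 for NCPR and 1.02 for THAS. The ABCB6 value is that of the sum. The EPA Trinity gene that the study's list ties to abcb6a went from 7.91 to 17.9 CPM. Clock names gave 3.54 for PER2, 1.82 for CRY1 and -1.93 for PER1, and repair names 2.57 for XPC, 1.39 for APEX1 and 1.32 for DDB2. Mitochondrial names gave 1.84 for SDHF1, 1.06 for SDHA and 1.13 for AFG32.

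Oxidoreductases gave 1.49 for RETST, 1.44 for DHR12, 1.27 for CBR1, 1.24 for DHR13, 1.18 for RNLS and 1.04 for DHR11. Transporters gave 1.25 for S23A2, 1.25 for MRP1 and 1.17 for MRP4. Other names above 0 were LONF1 at 3.47, ANKS3 at 3.14, SETB2 at 2.09, ABHD4 at 2.03, ZN710 at 1.88 and NF2L2 at 1.35.

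Below 0, the glutathione names gave -2.04 for GSH1, -1.32 for GSH0 and -1.38 for SRXN1. Metabolic names gave -1.33 for METK2, -1.40 for P5CR2 and -1.03 for AL1L2, and ANGL4 gave -1.46. Names that were lower in PAC-2 at 6 h gave -1.57 for CDN1A, -1.25 for TXNIP, -1.16 for HES6, -1.15 for UBE2C, -1.12 for CDC20 and -1.07 for ACT2.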

How the results depend on the processing

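Of the 80 called differences, 78 were called by DESeq2, 80 with median-ratio size factors, 80 without a filter, 80 with all 24 libraries in the fit and 79 with voom weights. Scaling on the shared names called 88, of which 74 were among the 80, and gave 4 falls in PAC-2 and 3 in PAC-2 only. Matching by full entry name gave 5 and 3 of these, and turned METK2 to 0.48 for the difference and -6.6e-05 for the EPA change. The test against a 2-fold difference (glmTreat) left 22 higher and 6 lower. With the replicate block within each line, 79 of the 80 were called, 2 names fell in EPA and 2 in EPA only (CH25H and ISPD), and of the named calls the block ended that of NEIL1 in PAC-2. Leaving out 1 library gave 52 to 79 names higher and 17 to 28 lower, 76 to 90 rises and 6 to 9 falls in PAC-2, 23 to 27 rises and 0 to 1 falls in EPA, and 46 to 59 rises in PAC-2 only, 5 to 9 falls in PAC-2 only, 4 to 7 rises in EPA only and 0 to 1 falls in EPA only. The EPA fall was ANKS3, without EPA 6 h replicate 1. The causes were not tested. Names with few counts per library, such as ANKS3, are limited by depth.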

Other observations

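Within the shared names, the EPA change of the 47 names that rose in PAC-2 only was between -0.17 and 0.92 on the log2 scale, and 37 of the 47 had a higher CPM in EPA than in PAC-2 at 0 h, as did 3947 of all 6235 names. Their median level at 0 h was 7.28 CPM in PAC-2 and 21.4 CPM in EPA, beside 20.3 and 27.2 CPM over all names. Levels of the same name in the lines are not corrected for the length of the assembled transcripts.

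Of the other lists, sterol and fatty acid synthesis had 0 calls among 14 names tested. All 14 had differences above 0 (2673 of all 6235 names did), with a median of 0.17. The list's medians were 0.03 in PAC-2 and -0.15 in EPA. The actin and matrix list of fibroblasts had 0 calls among 21 names and a median difference of 0.03. Over all names 1.28% had a called difference, and lists this short can hold 0 calls at that share. Of 11 p53 and target names, CDN1A was the only one called, while MDM2, the feedback inhibitor of p53, had a difference of 0.26 ± 0.08 and BAX one of -0.38 ± 0.05.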
